A study of Mus musculus with 9 samples.

Results

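The 7 immunity-related GTPase genes Irgm1, Irgm2, Igtp, Iigp1, Tgtp1, Tgtp2 and Ifi47 were followed through conventional type 1 dendritic cells (cDC1), as the sample titles name them, of peri-pancreatic lymph nodes in mice. They were chosen by name, as members of the family, from 53458 genes obtained by summing transcripts to genes, and all 7 were among the 24133 genes that passed the filter on low counts. Each of 3 stages named in the labels had 3 libraries: Healthy, PanIN (for pancreatic intraepithelial neoplasia, a lesion that precedes the cancer) and Tumor. KPC, named in the title of the series, is a mouse model of pancreatic cancer driven by a Cre recombinase in pancreas cells. The alleles, strain, age, sex and treatment of the mice in each group, the promoter of the Cre, and any pooling of animals are not stated in the sources used. P-values therefore rest on the spread among libraries alone, and that spread may be technical.

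Immunity-related GTPases are a family of interferon-inducible proteins that defend a cell from within. Effector members of the GKS class, here Iigp1, Tgtp1, Tgtp2 and Ifi47, gather on the vacuoles in which parasites and bacteria hide and help to break them. Regulatory members of the GMS class, here Irgm1, Irgm2 and Igtp (also called Irgm3), sit on the cell's own membranes and hold the effectors inactive there. The classes are named for a lysine or a methionine in the nucleotide-binding motif. Igtp has also been linked to lipid droplets and to the cross-presentation of antigen in dendritic cells. The family is switched on mainly by interferon gamma, through factors that bind GAS elements and through IRF1 and related factors that bind ISRE elements.

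Of the 7 genes, 6 lie on chromosome 11 (GRCm38, GENCODE M21) in a pair of clusters. Irgm1 (48861968 to 48871683), Tgtp1 (48985327 to 48994172), Tgtp2 (49057194 to 49064206) and Ifi47 (49076587 to 49096974) form one, and Igtp (58199556 to 58207591) and Irgm2 (58199618 to 58222782) the other. Promoter windows of RefSeq (GRCm38), from 250 bases before the start of transcription to 50 after it, were found for 6 of the 7 genes, all but Iigp1. They were searched on both strands for the ISRE, spelled GAAA, any 2 bases and GAAA, and the GAS, spelled TTCNNNGAA. The stretches below hold the matches, with the matching bases in capitals, each 5′ to 3′ on the gene's strand, and are shown because 4 of the genes share one arrangement.
Irgm2, chr11:58214882-58214932 (plus strand): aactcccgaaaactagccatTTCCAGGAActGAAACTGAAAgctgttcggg
Igtp, chr11:58199491-58199541 (plus strand): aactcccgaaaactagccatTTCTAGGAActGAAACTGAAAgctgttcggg
Tgtp1, chr11:48992304-48992354 (minus strand): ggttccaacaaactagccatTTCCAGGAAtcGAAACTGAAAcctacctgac
Tgtp2, chr11:49064263-49064313 (minus strand): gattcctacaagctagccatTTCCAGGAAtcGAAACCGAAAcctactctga
Irgm1, chr11:48871425-48871470 (minus strand): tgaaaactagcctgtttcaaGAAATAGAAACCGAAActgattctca

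In Irgm2, Igtp, Tgtp1 and Tgtp2 a GAS was followed after 2 bases by an ISRE. The GAS began 75 bases before the start of transcription in Irgm2, 45 in Igtp, 88 in Tgtp1 and 81 in Tgtp2. Irgm1 held 2 overlapping ISRE matches, 30 and 24 bases before its start, and no GAS match. Of all 32851 promoter windows, 3.44% held an ISRE match, 8.3% a GAS match and 0.454% both. The joined form, a GAS, any 2 bases and an ISRE on the same strand, written down after these sequences were seen, occurred in 5 windows (0.0152%). They were the windows of these 4 genes and of Gm12185, another gene of the family on chromosome 11. The printed stretches of Irgm2 and Igtp differed in 1 of 51 bases, and those of Tgtp1 and Tgtp2 in 9. The window of Ifi47 held neither motif. It lies before the transcript Ifi47-202, which received 2.16% of the gene's counts, whereas Ifi47-201, with 91.2%, starts at 49087039, outside the window. These matches describe letters in the reference, and binding was not measured.

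Libraries held 32150281 to 68934430 estimated counts. All 10 cDC1 markers listed, among them Xcr1, Clec9a, Irf8 and Batf3, were above 0 in every library, and their summed level ran from 3625 to 12560 CPM (each gene as its part of a library scaled to a common size, with TMM factors). Other cells left lower sums: 93.2 to 414 CPM over 13 markers of T and NK cells, 37.3 to 310 CPM over 10 of B cells, 215 to 738 CPM over 11 of macrophages and monocytes and 2.76 to 43.3 CPM over 10 of neutrophils. In Tumor 1, the lowest Tumor library for 5 of the 7 genes, 10 epithelial and acinar markers summed to 86.5 CPM, against 6.96 to 18.2 in the other 8 libraries, and 7 plasma cell markers to 340 CPM, against 91.9 to 222; their part in the results was not tested. In these bulk samples fewer cells of a type and less RNA per cell cannot be told apart.

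Per unit of transcript length Tgtp1, an effector also known as Irgb6, and the regulator Irgm1 had the highest gene totals. On the deposited TPM scale (reads per transcript length, scaled to 1 total and summed to genes), Tgtp1 averaged 33.0 over the 9 libraries, Irgm1 24.6, Tgtp2 18.8, Ifi47 12.7, Igtp 10.2, Irgm2 4.75 and Iigp1 4.66. Tgtp1 was the highest of the 7 in 9 of 9 libraries and Irgm1 the next in 9 of 9. That order rests on 2 short annotated transcripts of Tgtp1, which held 5.59% of its counts but 0.0% to 46.9% of its TPM, and on the uncertain split with Tgtp2 given below. The long transcript Tgtp1-201 alone averaged 22.9 TPM and lay below Irgm1 in 5 of 9 libraries, so Tgtp1 and Irgm1 could not be ordered. Tgtp2 stood above Ifi47 in 8 of 9, all but Tumor 1. Its short transcript Tgtp2-202 held 1.93% of its counts but 0.0% to 62.8% of its TPM. The long transcript Tgtp2-201 alone also lay below Ifi47 in Healthy 3 (4.07 against 5.90 TPM) and PanIN 1 (14.6 against 15.5). The place of Tgtp2 above Ifi47 is thus uncertain too. Ifi47 stood above Igtp in 7 of 9. Igtp stood above Irgm2 in 9 of 9, while Irgm2 and Iigp1 could not be ordered, with Irgm2 above in 4 of 9. By mean TPM the genes lay between the 63.1 percentile (Iigp1) and the 88.9 percentile (Tgtp1) of the genes tested. The summed level of the 7 was 81.1 ± 34.1 TPM (SD, n = 3) in Healthy, then 170.5 ± 50.0 for PanIN, then 74.6 ± 24.8 for Tumor. The 3 regulatory genes made up 33.1% to 39.3% of the TPM sum in every library. Their means were 34.8% ± 1.48 for Healthy, beside 36.1% ± 2.94 for PanIN and 38.1% ± 1.24 for Tumor (SD, n = 3). The sum and this share both include the short transcripts of Tgtp1 and Tgtp2. These held few counts but up to 46.9% and 62.8% of the TPM of their gene, unevenly between libraries. The share without them is not given here, so neither its range nor an order of the stages by it is firm.

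**Figure D1:**
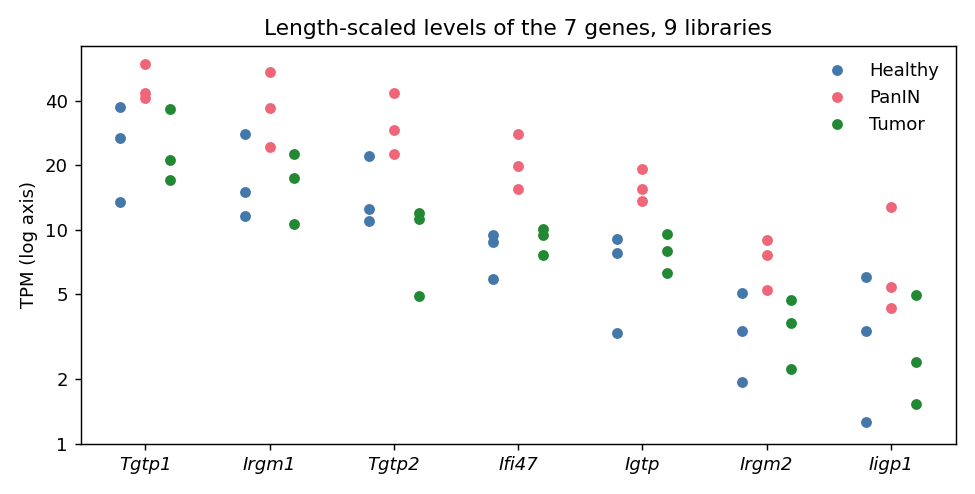
Deposited TPM summed to genes (log axis) for each of the 7 genes, 1 point per library, coloured by stage. Tgtp1 and Irgm1 have the highest gene totals in every library, but the lead of Tgtp1 over Irgm1 rests on its short transcripts, since Tgtp1-201 alone lies below Irgm1 in 5 of 9.

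In PanIN against Healthy, all 7 genes leaned higher in PanIN without passing the test. All 7 had a positive log2 fold change, from 0.58 in Tgtp2 to 1.07 in Ifi47, with a median of 0.76. Over all genes tested 42.5% were positive and the median was -0.10. None of the 7 passed by edgeR (quasi-likelihood F test, adjusted over all genes by Benjamini-Hochberg), where 0 of 24133 genes (0.0%) passed. At an unadjusted p under 0.05, 3 of the 7 were higher (Ifi47, Igtp and Tgtp1), where 4.82% of all genes were. DESeq2 also called 0 of the 7, where it called 206 of the 24098 genes it tested (0.855%).

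Among the regulators, Igtp stood at 25.5, 33.7 and 11.9 CPM in the Healthy libraries and at 39.0, 41.4 and 52.2 CPM in PanIN. The groups did not overlap, and PanIN stood 0.90 log2 units higher (SE 0.33, adjusted p = 0.457). Irgm1, which is also tied to autophagy, stood at 51.4, 107 and 43.8 CPM in Healthy and at 77.1, 104 and 152 CPM in PanIN. Healthy 2 lay above PanIN 1 and PanIN 2, so the groups overlapped, and the difference was 0.72 log2 units (SE 0.36, adjusted p = 0.513). Irgm2 stood at 19.5, 32.4 and 11.8 CPM in Healthy and at 27.8, 35.7 and 42.4 in PanIN, again with Healthy 2 above PanIN 1 (log2 fold change 0.73, SE 0.35, adjusted p = 0.49).

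Among the effectors, Ifi47, also called Irgd, gave the smallest p of the 7. It stood at 22.0, 22.9 and 14.7 CPM in Healthy and at 33.7, 37.7 and 53.3 CPM in PanIN. Every PanIN library lay above every Healthy library (log2 fold change 1.07, SE 0.26, adjusted p = 0.329). Tgtp1 stood at 74.0, 106 and 42.4 CPM in Healthy and at 118, 97.5 and 161 CPM in PanIN. Here Healthy 2 lay above PanIN 2 (log2 fold change 0.76, SE 0.31, adjusted p = 0.457).

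Tgtp2, its near-identical neighbour, stood at 50.9, 87.3 and 19.5 CPM in Healthy and at 56.5, 72.5 and 106 CPM in PanIN (log2 fold change 0.58, SE 0.45, adjusted p = 0.721). Iigp1, the effector Irga6, lies apart from the others on chromosome 18 (60376027 to 60392634) and varied most between libraries, 7.80-fold from the lowest to the highest. It stood at 13.5, 26.2 and 5.45 CPM in Healthy and at 20.1, 13.8 and 42.5 CPM in PanIN (log2 fold change 0.76, SE 0.55, adjusted p = 0.688). In both genes Healthy 2 lay above PanIN 1 and PanIN 2. Igtp and Ifi47 were thus the 2 of 7 with all PanIN libraries above all Healthy ones, an arrangement that 7.4% of all genes showed.

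**Figure D2:**
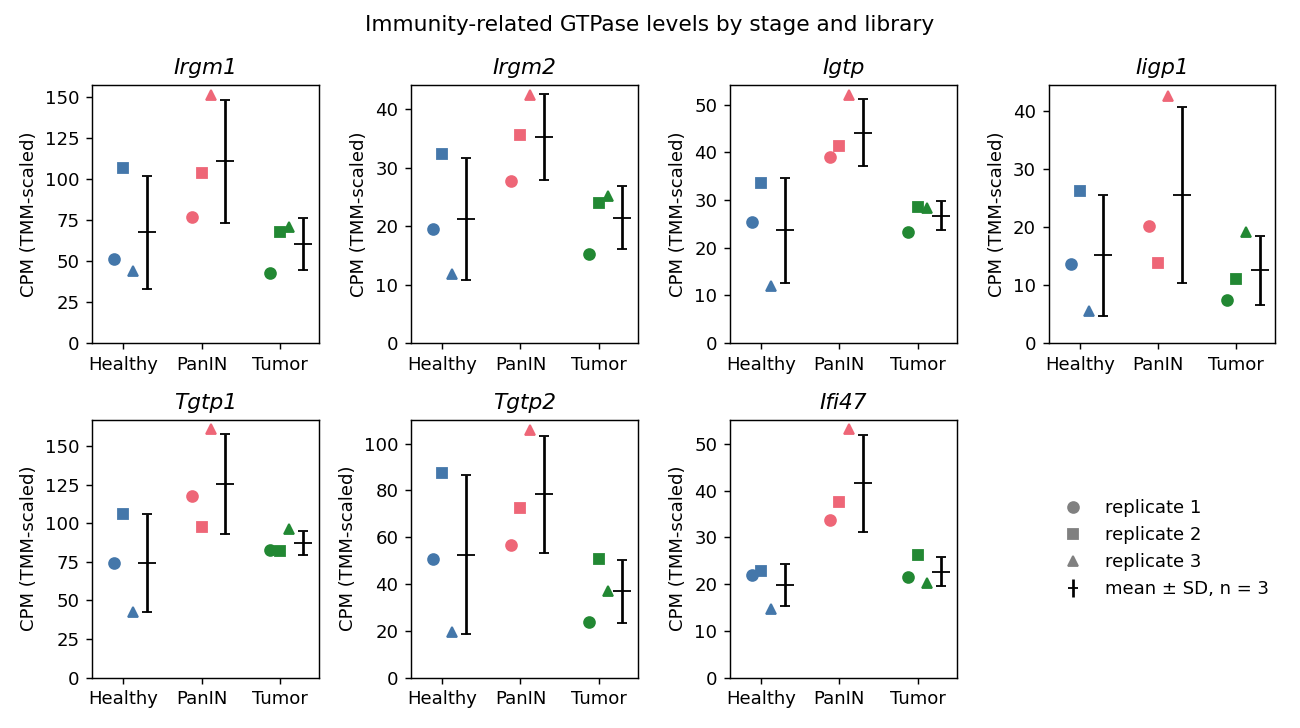
Levels of the 7 genes in CPM with TMM scaling (linear axes from 0), 1 marker per library, with the mean ± SD of 3 libraries per stage in black. PanIN 3 is the highest library for every gene, and Healthy 2 reaches into the PanIN range for all but Igtp and Ifi47.

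The size of the PanIN difference moved with single Healthy libraries. The median log2 fold change of the 7 was 1.18 without Healthy 2, 0.50 without Healthy 3, 0.69 without Healthy 1 and 0.54 without PanIN 3, with 7 of 7 positive each time. None of the 7 passed in these fits.

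Tumor against PanIN set the later stage beside the earlier one. Each of the 7 genes stood lower in Tumor, by a median log2 fold change of -0.87, where 54.2% of all genes were negative with a median of -0.05. None of the 7 passed by edgeR or DESeq2, where 3 of 24133 genes (0.0124%) did by edgeR and 37 of 25462 (0.145%) by DESeq2. At an unadjusted p under 0.05, 4 of the 7 were lower (Irgm1, Igtp, Tgtp2 and Ifi47), against 2.52% of all genes. In 6 of the 7, all but Iigp1, every Tumor library lay below every PanIN library, an arrangement shown by 7.26% of all genes.

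Ifi47 stood at 21.6, 26.3 and 20.3 CPM in Tumor, against 33.7 or more in PanIN (log2 fold change -0.87, SE 0.26, adjusted p = 1). Irgm1 stood at 42.4, 67.9 and 71.0 CPM in Tumor (log2 fold change -0.88, SE 0.36, adjusted p = 1). Tgtp2 had the widest difference, with 23.7, 50.6 and 36.8 CPM in Tumor, a difference of -1.08 log2 units (SE 0.46, adjusted p = 1). The Tumor values of these 3 genes lay within their Healthy ranges, apart from Ifi47 in Tumor 2, which lay above, and Irgm1 in Tumor 1, which lay below.

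Igtp stood at 23.2, 28.6 and 28.4 CPM in Tumor and Irgm2 at 15.2, 23.9 and 25.2, both with a log2 fold change of -0.72. Tgtp1 stood at 82.9, 82.4 and 96.5 CPM in Tumor, just below PanIN 2 at 97.5, and had the smallest difference of the 7 (log2 fold change -0.52, SE 0.31, adjusted p = 1). Iigp1 stood at 7.46, 11.1 and 19.1 CPM in Tumor, so that Tumor 3 lay above PanIN 2 (log2 fold change -1.02, SE 0.56, adjusted p = 1). Without PanIN 3, the highest library for each gene, the median of the 7 was -0.58, and it was -0.68 without Tumor 1, with 0 of 7 positive in both fits.

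Tumor against Healthy showed no common direction. The log2 fold changes ran from -0.50 in Tgtp2 (SE 0.45) to 0.24 in Tgtp1 (SE 0.31), 4 of 7 were positive, and the median was 0.02. Over all genes 43.5% were positive and the median was -0.11. None of the 7 passed by edgeR or DESeq2, where 6 of 24133 genes (0.0249%) did by edgeR and 1629 of 18650 (8.73%) by DESeq2. At an unadjusted p under 0.05, 0 of 7 were higher or lower, where 6.82% and 11.0% of all genes were. The groups overlapped for all 7, where 9.02% of all genes had every Tumor library above and 9.06% every Tumor library below. Direction turned with 1 library: 7 of 7 were positive without Healthy 2 (median 0.41), 1 of 7 without Healthy 3 (median -0.24) and 6 of 7 without Tumor 1 (median 0.21). The SE of 0.26 to 0.55 on these values leaves room for differences in either direction, so a like level in Tumor and Healthy is not shown.

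**Figure D3:**
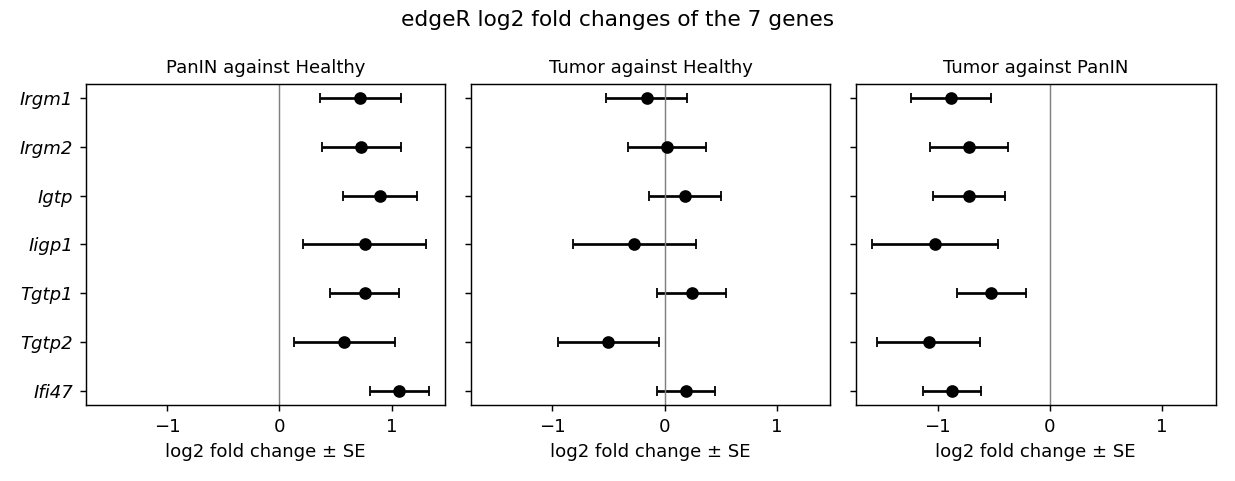
Log2 fold changes from the edgeR fit over 9 libraries, with bars of 1 SE, for each of the 7 genes in the 3 comparisons. All 7 are above 0 for PanIN against Healthy and below 0 for Tumor against PanIN, and they lie on both sides of 0 for Tumor against Healthy; none passed the test.

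A single test of any difference among the 3 stages gave adjusted p from 0.295 (Ifi47) to 0.591 (Iigp1) by edgeR, and 0 of the 7 passed, where 5 of all genes (0.0207%) did. Unadjusted, Ifi47 and Igtp were under 0.05, where 13.4% of all genes were. Ifi47 was called by DESeq2 (adjusted p = 0.0298), which called 1083 of the 15898 genes it tested (6.81%). It was called by edgeR with no filter on low counts (adjusted p = 0.0412), where 855 of 36907 genes (2.32%) were. Without Healthy 2, edgeR called Ifi47 (adjusted p = 0.0366) and Irgm1 (adjusted p = 0.0499), where 1360 of 25589 genes (5.31%) were called. Over all alternatives the adjusted p ran up to 0.546 for Ifi47 and 0.854 for Irgm1.

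The 7 genes varied together from library to library within a stage as well as between stages. Centred on each gene's mean over the 9 libraries, the mean log2 CPM of the family was -0.24, 0.41 and -1.11 in Healthy 1 to 3, 0.29, 0.38 and 1.02 in PanIN, and -0.61, -0.10 and -0.05 in Tumor. PanIN 3 was the highest library for 7 of 7 genes and Healthy 3 the lowest for 6 of 7, all but Irgm1, which was lowest in Tumor 1. The spread between Healthy 2 and Healthy 3 was wider than the difference between any pair of stage means. Irgm2 followed the other 6 most closely, with a root mean square difference of 0.136 on the log2 scale, and Iigp1 least closely, at 0.426.

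The cDC1 markers moved in part with the family. The mean centred log2 CPM of the 10 markers was -0.29, 0.80 and -0.80 in Healthy 1 to 3, -0.28, 0.09 and 0.66 in PanIN and -0.51, 0.26 and 0.07 in Tumor. Both measures were highest in Healthy 2 and PanIN 3 and lowest in Healthy 3 and Tumor 1. Ccr7, Fscn1, Cd40, Cd80, Cd83 and Cd86, genes of mature dendritic cells, differed from both, at 0.05, -1.59 and -0.72 in Healthy, at 0.29, 0.11 and -0.24 in PanIN and at 1.01, 0.33 and 0.75 in Tumor. B cell markers summed to 310 CPM in PanIN 2, against 37.3 to 82.3 in the other 8 libraries, and neutrophil markers to 43.3 and 29.3 CPM in PanIN 2 and PanIN 3. Of the tested markers, 10 of 10 for B cells and 7 of 7 for neutrophils were positive for PanIN against Healthy, where 42.5% of all genes were. For Tumor against PanIN 0 of each were positive, where 54.2% of all genes were negative. By library both differed from the GTPases. In PanIN 3, the highest library for all 7 GTPases, the B cell sum was 37.3 CPM, the lowest of any library. In PanIN 1 the neutrophil sum was 4.35 CPM, within the Healthy range of 2.76 to 5.88. The part of these cell and state differences in the results for the family was not tested.

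One title code was shared by Healthy 1, PanIN 1 and Tumor 1. Within it, with no replicates, the median log2 difference of the 7 was 0.58 for PanIN against Healthy (7 of 7 positive), -0.86 for Tumor against PanIN (0 of 7) and -0.28 for Tumor against Healthy (1 of 7). Over the 6 libraries outside it they were 1.02, -0.74 and 0.32, with 7, 0 and 7 of 7 positive. The directions of the PanIN comparisons were thus the same in both sets, and that of Tumor against Healthy was not.

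**Figure D4:**
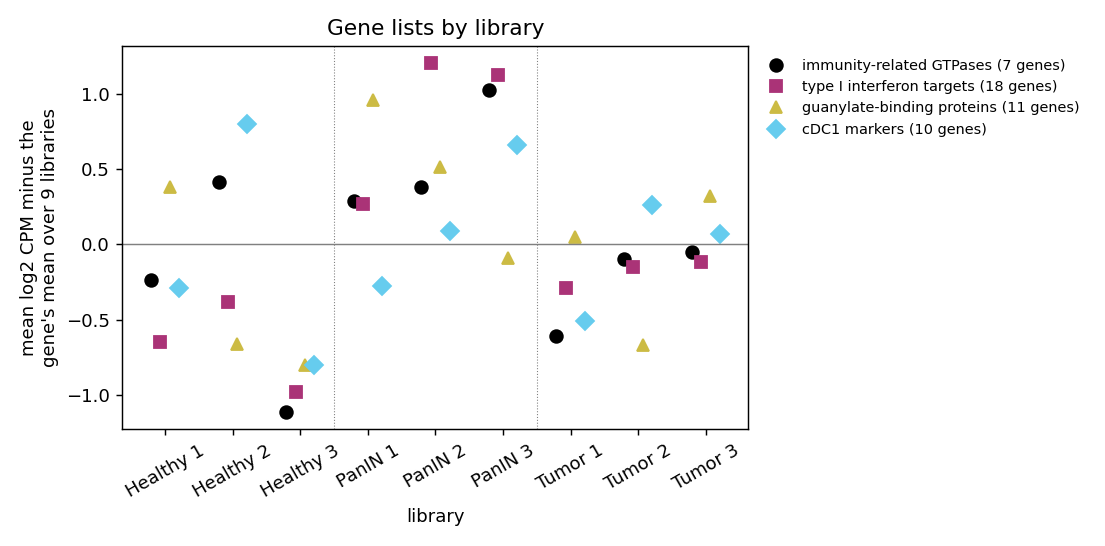
Mean log2 CPM, centred on each gene's mean over 9 libraries, of 4 gene lists in each library (points of a library are set side by side). The family runs from -1.11 in Healthy 3 to 1.02 in PanIN 3, and cDC1 markers share its high points in Healthy 2 and PanIN 3.

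The split of reads within the family limits single values. Of the 31-base words of the longest transcript, 94.2% in Tgtp1 and 94.7% in Tgtp2 also occur in other genes, nearly all in each other, so the share of each is uncertain. Tgtp1 took 54.9% to 77.8% of their sum. Counted as 1 feature, the pair stood at 127 ± 65.9 CPM in Healthy, then 204 ± 54.9 for PanIN, then 124 ± 15.4 for Tumor (SD, n = 3). The log2 fold changes of the sum were 0.69 (SE 0.35) for PanIN against Healthy, -0.71 (SE 0.35) for Tumor against PanIN and -0.03 (SE 0.35) for Tumor against Healthy, none of which passed. The other 5 genes shared 1.68% (Irgm1) to 16.4% (Igtp) of their words with other genes. The annotated transcript Irgm2-201 starts at 58199618, in the leading exon of Igtp.

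The split of a gene between its annotated transcripts is a model-based estimate. Irgm2-201 was given 0% of the gene's TPM in 5 libraries and 4.69%, 26.8%, 49.3% and 87.4% in Healthy 3, PanIN 2, PanIN 3 and Tumor 3. For Irgm1, the transcript Irgm1-202 took 19.9% to 66.1%. Libraries of the 3 stages overlapped in both shares.

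Igtp-202 set Healthy apart from PanIN and Tumor, which overlapped, and was singled out after its values were seen. This transcript lacks 199 bases of the large coding exon (chr11:58206120-58206318), which the main transcript Igtp-201 keeps, and its annotated coding sequence has 159 bases against 1269. It was at 0 counts in all 3 Healthy libraries, at 474, 252 and 173 estimated counts in PanIN and at 204, 110 and 272 in Tumor. That was 36.0%, 17.7% and 8.51% of the TPM of Igtp in PanIN, and 25.6%, 10.5% and 29.7% in Tumor. A similar transcript, Igtp-203, lacks 142 bases that end at the same place (chr11:58206177-58206318). It was given 5.79 estimated counts in Healthy 3, 113 in PanIN 3 and 0 in every other library. The split of reads between Igtp-202 and Igtp-203 is also a model-based estimate. There were 16183 transcripts of tested genes with at least 100 counts in each PanIN and Tumor library. Of these, 16 (0.0989%) were at 0 in all Healthy libraries. That minimum of 100 lies just below the lowest of the 6 Igtp-202 values, 110 in Tumor 2. Reads across the splice junctions were not analysed here, and the difference in Igtp-202 was not tested at the transcript level.

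**Figure D5:**
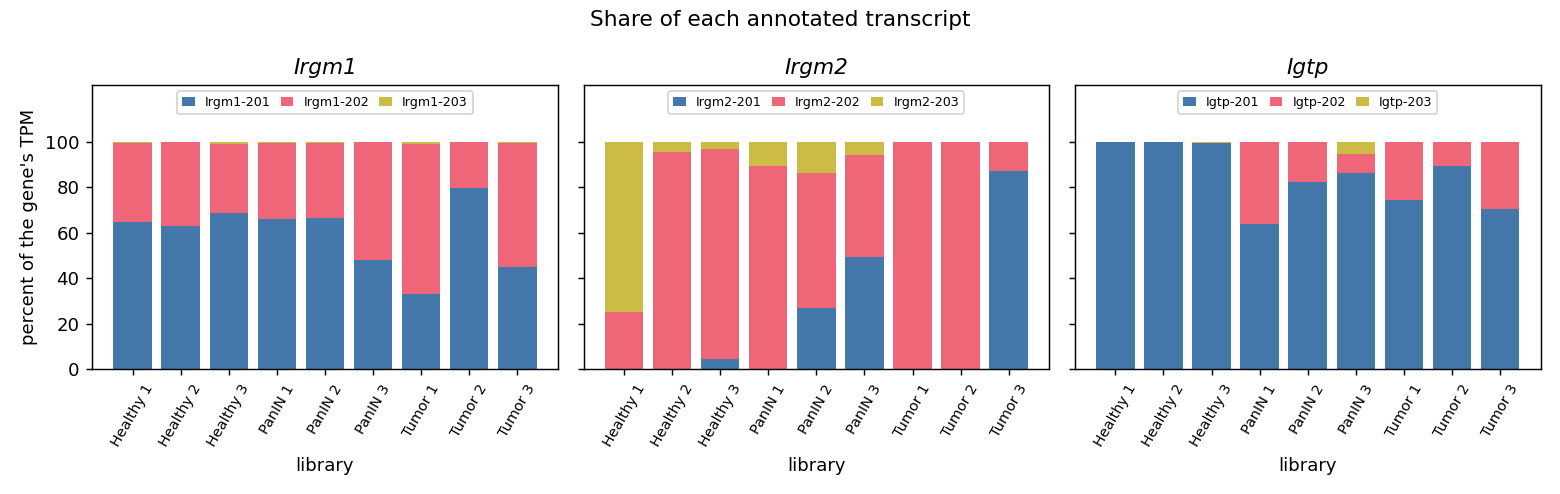
Percent of each gene's TPM given to each annotated transcript, by library, for Irgm1, Irgm2 and Igtp. Igtp-202 is at 0% in the 3 Healthy libraries and between 8.51% and 36.0% in the other 6, while the Irgm2 shares differ widely between libraries of 1 stage.

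Of 11 other genes of the family matched, 9 were tested, with medians of 0.31 for PanIN against Healthy (5 of 9 positive), -0.88 for Tumor against PanIN and -0.76 for Tumor against Healthy (1 of 9 positive in each). None passed by edgeR. Gm12185, the gene with the joined GAS and ISRE noted above, stood at 3.60, 11.8 and 2.85 CPM for Healthy, beside 7.94, 7.25 and 17.9 for PanIN and 4.02, 3.68 and 3.56 for Tumor. Gm12250, annotated as a processed pseudogene, stood at 4.77, 8.76 and 2.60, then 6.59, 8.34 and 12.4, then 2.84, 4.18 and 2.48 CPM. Both were highest in PanIN 3 and had all Tumor libraries below all PanIN libraries. Irgq, a distant relative, stood highest in Healthy, at 26.8 ± 7.96 CPM against 18.9 ± 1.50 in PanIN and 15.6 ± 1.34 in Tumor (SD, n = 3), with no overlap between any pair of stages.

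The interferons themselves were near absent in these libraries. Ifng stood between 0 and 0.843 CPM, and of 11 interferon genes listed it was the 1 that passed the filter. Receptors were present throughout. Ifngr1, the ligand-binding chain for interferon gamma, stood at 347, 945 and 251 CPM in Healthy, at 309, 446 and 482 in PanIN and at 307, 423 and 356 in Tumor. Ifngr2, its signalling partner, stood at 84.3 ± 18.8 CPM in Healthy, then 105 ± 6.15 for PanIN, then 118 ± 16.7 for Tumor. Ifnar1 and Ifnar2, the receptor chains for type I interferon, had log2 fold changes of 0.48 and 0.07 for PanIN against Healthy.

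Of the 15 receptor and signalling genes together, 13 were positive for PanIN against Healthy, where 42.5% of all genes were, with a median of 0.32. None passed by edgeR, and 4 of 15 were higher at an unadjusted p under 0.05, where 4.82% of all genes were. Stat2, a part of the complex that type I interferon sends to ISRE elements, had all PanIN libraries above all Healthy ones, at 205 ± 88.4 against 77.0 ± 22.4 CPM (SD, n = 3; log2 fold change 1.41). Irf1 stood at 222 ± 122 CPM in Healthy, at 404 ± 60.6 in PanIN and at 504 ± 147 in Tumor (SD, n = 3), with overlap in all 3 comparisons. Socs1 and Socs3, feedback inhibitors, had their highest mean in Tumor, at 16.7 and 31.3 CPM against 7.55 and 13.0 in Healthy.

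Guanylate-binding proteins are a second GTPase family induced by interferon that acts on the same vacuoles. Of 11 tested, 10 were positive for PanIN against Healthy, with a median of 0.64, and 6 for Tumor against Healthy, with a median of 0.29. For Tumor against PanIN 5 of 11 were positive and the median was -0.23. None passed by edgeR. Gbp5 stood at 42.9 ± 15.6, 75.2 ± 19.0 and 82.5 ± 24.7 CPM and Gbp8 at 25.4 ± 18.0, 51.8 ± 27.9 and 79.8 ± 33.6 CPM in Healthy, PanIN and Tumor (SD, n = 3). Gbp7 stood at 4.53, 6.68 and 2.70 CPM by mean and was lower in every Tumor library than in every PanIN library. By library the families differed: guanylate-binding proteins stood at -0.66 centred log2 CPM in Healthy 2, where the immunity-related GTPases stood at 0.41, and at -0.09 in PanIN 3, the lowest of their 3 PanIN values. Whether the families differ between stages was not tested.

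Among the other targets of interferon gamma, 15 of 16 genes were tested, with medians of 0.27 for PanIN against Healthy, 0.37 for Tumor against Healthy and 0.04 for Tumor against PanIN, and 0 passed by edgeR. Nlrc5, which drives MHC class I genes, stood at 108, 306 and 255 CPM by mean in the 3 stages, and Cd274, which encodes PD-L1, at 42.5, 91.7 and 161. Psmb8, an immunoproteasome subunit, stood at 701 ± 163 CPM in Healthy, then 687 ± 61.6 for PanIN, then 987 ± 85.0 for Tumor (SD, n = 3). All 3, picked for a small p, had a higher mean in Tumor than in Healthy. Of the 15 tested, 11 were positive for Tumor against Healthy, where 43.5% of all genes were. Ciita, Cxcl9, Cxcl10 and Fcgr1 were negative.

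Type I interferon targets, such as Isg15 and Oas3, were also highest in PanIN by median. All 18 were positive for PanIN against Healthy (median 1.56) and 0 of 18 for Tumor against PanIN (median -1.01), while 13 of 18 were positive for Tumor against Healthy (median 0.55). For PanIN against Healthy 42.5% of all genes were positive. None of the 18 passed by edgeR, and 16 were higher in PanIN than in Healthy at an unadjusted p under 0.05, where 4.82% of all genes were. By library the lists differed in Healthy 2, where the type I targets stood at -0.38 and the GTPases at 0.41. The comparisons share libraries, so their medians are not independent of each other.

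The 13 genes of ubiquitin-like conjugation and its adaptors, which guide these GTPases to vacuoles, had medians of -0.09 for PanIN against Healthy, 0.15 for Tumor against Healthy and 0.29 for Tumor against PanIN, and 0 passed by edgeR. Gabarap, an ATG8 protein, stood at 320 ± 66.3, 326 ± 79.2 and 522 ± 77.8 CPM in Healthy, PanIN and Tumor (SD, n = 3), with every Tumor library above the others. Atg16l1 stood at 28.2 CPM for Healthy, beside 44.4 for PanIN and 37.4 for Tumor by mean, with every PanIN library above every Healthy one.

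By likeness over the 9 libraries, the genes nearest to the mean of the family among 12172 genes compared were Ifi211, Myc, Hps5, Nbeal2, Pml and Zfp516. Their root mean square differences were 0.179, 0.180, 0.200, 0.202, 0.206 and 0.220 on the log2 scale, where the median gene had 0.616. Ifi211 belongs to the interferon-inducible HIN-200 family, and Pml, the core of PML nuclear bodies, is also interferon-inducible. Pml stood at 57.9, 113 and 43.6 CPM in Healthy, at 88.3, 149 and 162 in PanIN and at 56.6, 82.2 and 80.6 in Tumor. Each of the 6 was highest in PanIN 3 and lowest in Healthy 3, as most of the GTPases were. The 9 libraries share the differences in cell state given above, and these genes were picked for their likeness.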

How the data were processed

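Total RNA of cDC1 was sequenced with a directional kit, per the labels, in 9 bulk libraries, 3 per stage. The authors' deposited values are estimated counts and TPM for each transcript. The submitters' processing notes list Salmon and mm10, while the deposited tables are named for sailfish, so the tool is uncertain. Version, settings and strand handling are not stated in the sources used. Of 136288 transcripts, 136176 matched GENCODE M21 (GRCm38), and they were summed to genes. Counts were rounded and tested with edgeR 4.0.16 (R 4.3.3): quasi-likelihood, all 9 libraries, stage as the 1 factor, TMM scaling, filterByExpr with a minimum count of 10, Benjamini-Hochberg adjustment over 24133 genes, threshold 0.05. The code was tested on simulated data. Alternatives were DESeq2 1.42.0, RLE scaling, no low-count filter, limma 3.58.1 on log2(TPM + 1) and log2(TPM + 0.1), a term for the shared title code, each library left out, and Healthy 2 and 3 left out together, the last chosen after results were seen. The genes and lists were chosen with earlier results of these data known. Named genes of each list were the 4 with the smallest p in the test of any difference, plus the receptors and Irf1; 1 further gene that the rule names is not reported here. Likeness was the root mean square difference from the family's centred log2 CPM.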

Additional observations from a re-analysis of the deposited data

How the results depend on the processing

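In both comparisons with PanIN, the direction of the 7 genes and of the Tgtp1 and Tgtp2 sum was kept under all 16 alternatives, and 0 of the 7 passed in any pairwise comparison. The test of any difference called 1 of the 7 by DESeq2, 1 with no filter on low counts, and 0 to 2 with 1 library left out (2 without Healthy 2). Counts over all genes depended on the tool. DESeq2 called 206 genes for PanIN against Healthy, 1629 for Tumor against Healthy, 37 for Tumor against PanIN and 1083 for any difference. With no filter these were 123, 1041, 33 and 855. PanIN against Healthy gave 4 genes on log2(TPM + 1), 3 on log2(TPM + 0.1) and 3 without Healthy 2 and 3 together. Any difference gave 8 on log2(TPM + 1) and 3 with the title code term, which left 1 for Tumor against PanIN. With 1 library left out, counts ran from 0 to 6, from 2 to 2177, from 1 to 7 and from 0 to 1360 in the same order of comparisons, with 2177 and 1360 both without Healthy 2. The cause was not tested.

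Reversals were limited to Tumor against Healthy, where no value passed. With 1 library left out, log2 fold changes ran from -0.36 to 0.35 in Irgm1, -0.24 to 0.46 in Irgm2, -0.12 to 0.53 in Igtp, -0.70 to 0.41 in Iigp1, -0.02 to 0.59 in Tgtp1, -0.87 to 0.08 in Tgtp2 and -0.33 to 0.42 in the Tgtp sum. Irgm1 was at 0.23 without Healthy 2 and 3, Irgm2 at -0.02 with the title code term, and Tgtp1 at -0.01 on both TPM scales. The TPM scales moved the all-gene median for PanIN against Healthy from -0.10 to 0.11 and 0.23, and that of the 7 genes from 0.76 to 1.03 and 1.12. No paired analysis was possible over all libraries because the labels carry no replicate numbers and 1 title code alone is shared between stages (by Healthy 1, PanIN 1 and Tumor 1); that code was fitted as a term.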
